A study of Mus musculus with 222 samples.

Results

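The ligands of the epidermal growth factor and neuregulin families were described here in mammary tumors of MMTV-ErbB2 mice and in normal mammary glands. Of the 8 ligand genes chosen by name (Egf, Areg, Ereg, Btc, Hbegf, Tgfa, Nrg1 and Nrg4), 7 were measured by a probe set annotated with that gene symbol alone, and each of the 7 had exactly 1 such probe set among the 19938 genes that had any. Areg, which encodes amphiregulin, had none and no level was given to it. The tumors arose in female mice that carry the ErbB2 proto-oncogene under the MMTV promoter, which is active mainly in mammary epithelium, and all tumors were labelled as MMTV-ErbB2. F1BX tumors (160 arrays) came from mice bred by mating transgenic F1 males with non-transgenic FVB females, F1 tumors (28 arrays) from the cross of FVB with C57BL/6, and FVB tumors (26 arrays) from the inbred FVB strain. The normal glands came from F1 MMTV-ErbB2 mice (2 arrays), FVB MMTV-ErbB2 mice (3 arrays) and F1 wild type mice (3 arrays). The study gives the latency of tumors and the lifespan for each background but not the age of the mouse behind each array, so age and background cannot be told apart here. No source used here gives the stage of the glands. By their names as written, the 214 tumor arrays hold 212 different tumors, and 38 mice contributed 2 or more arrays. Names of F1 tumors begin with F1_ or with F alone, some with the same mouse number. These were counted as different mice and tumors, which the labels do not settle.

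ErbB ligands are made as membrane-anchored precursors and are released by shedding proteases such as ADAM10 and ADAM17. EGF, TGF-alpha and amphiregulin bind EGFR, whereas betacellulin (Btc), heparin-binding EGF-like growth factor (Hbegf) and epiregulin (Ereg) bind both EGFR and ERBB4. Neuregulin 1 (Nrg1) binds ERBB3 and ERBB4, and neuregulin 4 (Nrg4) binds ERBB4. ERBB2 has no ligand of its own and signals as the partner of the ligand-bound receptors. In the mammary gland, amphiregulin acts downstream of estrogen in duct growth, and neuregulin 1 is made by stromal and basal cells.

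All levels below are log2 values, on which a difference of 1 is a 2-fold change, and the level of a probe set can be compared between samples but not with that of another gene. The arrays fell into a narrow set of 34 arrays, with an interquartile range of 1.86 to 2.62, and a wide set of 188 arrays, with a range of 3.04 to 3.35. The narrow set held all 8 glands, 20 F1BX tumors and 6 F1 tumors, and the wide set 140 F1BX, 22 F1 and 26 FVB tumors, so the sets were kept apart. No source used here explains the sets. Ligand levels differed between the sets. Apart from the repeats named below, the sets hold different tumors, so array set and tumor cannot be told apart. Among F1BX tumors, Nrg4 was 0.80 higher on narrow than on wide arrays (adjusted p = 7.16e-09 in limma, a linear model across all probe sets) and Ereg 0.45 higher (adjusted p = 0.000245), whereas Egf was 0.74 lower (adjusted p = 0.00692), Btc 0.51 lower (adjusted p = 2.79e-09) and Tgfa 0.47 lower (adjusted p = 2.22e-05). None of these reached 2-fold, while 5.49% of all 35556 probe sets were at least 2-fold higher and 6.27% at least 2-fold lower at a false discovery rate of 0.005 or less. By their names, 2 narrow arrays repeat a tumor of the wide set. Nrg4 read 6.32 on 035T1R and 4.95 on 035T1, and 6.18 on 246T1R and 5.38 on 246T1. Egf read 7.85 and 7.74 on the first of these pairs, but 8.53 and 9.95 on the other. In F1 tumors Egf averaged 8.30 on narrow and 8.15 on wide arrays, unlike the F1BX direction. As a check of the labels, Erbb2 averaged 11.97 ± 0.99 in narrow tumors, 12.40 ± 0.29 in wide tumors and 9.32 ± 0.94 in glands (SD, n = 26, 188 and 8). However, 4 tumors lay within the gland range. They were 092T1 (8.32), F1_26T1 (9.72) and 076T1 (10.31) of the narrow set and 168T1 (9.32) of the wide set. This range joins wild type glands (8.26 to 8.35) and MMTV-ErbB2 glands (9.05 to 10.48). Only 092T1 lay at the wild type level, although it was labelled as MMTV-ErbB2, and the others lay among the MMTV-ErbB2 glands. The label does not give the Erbb2 level of a tumor, and the reason for the low level was not tested. All 4 tumors were kept, and the results that rest on them are also given without them. The mean of 6 markers of luminal epithelium was 8.45 to 11.96 in narrow tumors and 10.24 to 12.37 in glands.

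**Figure D1:**
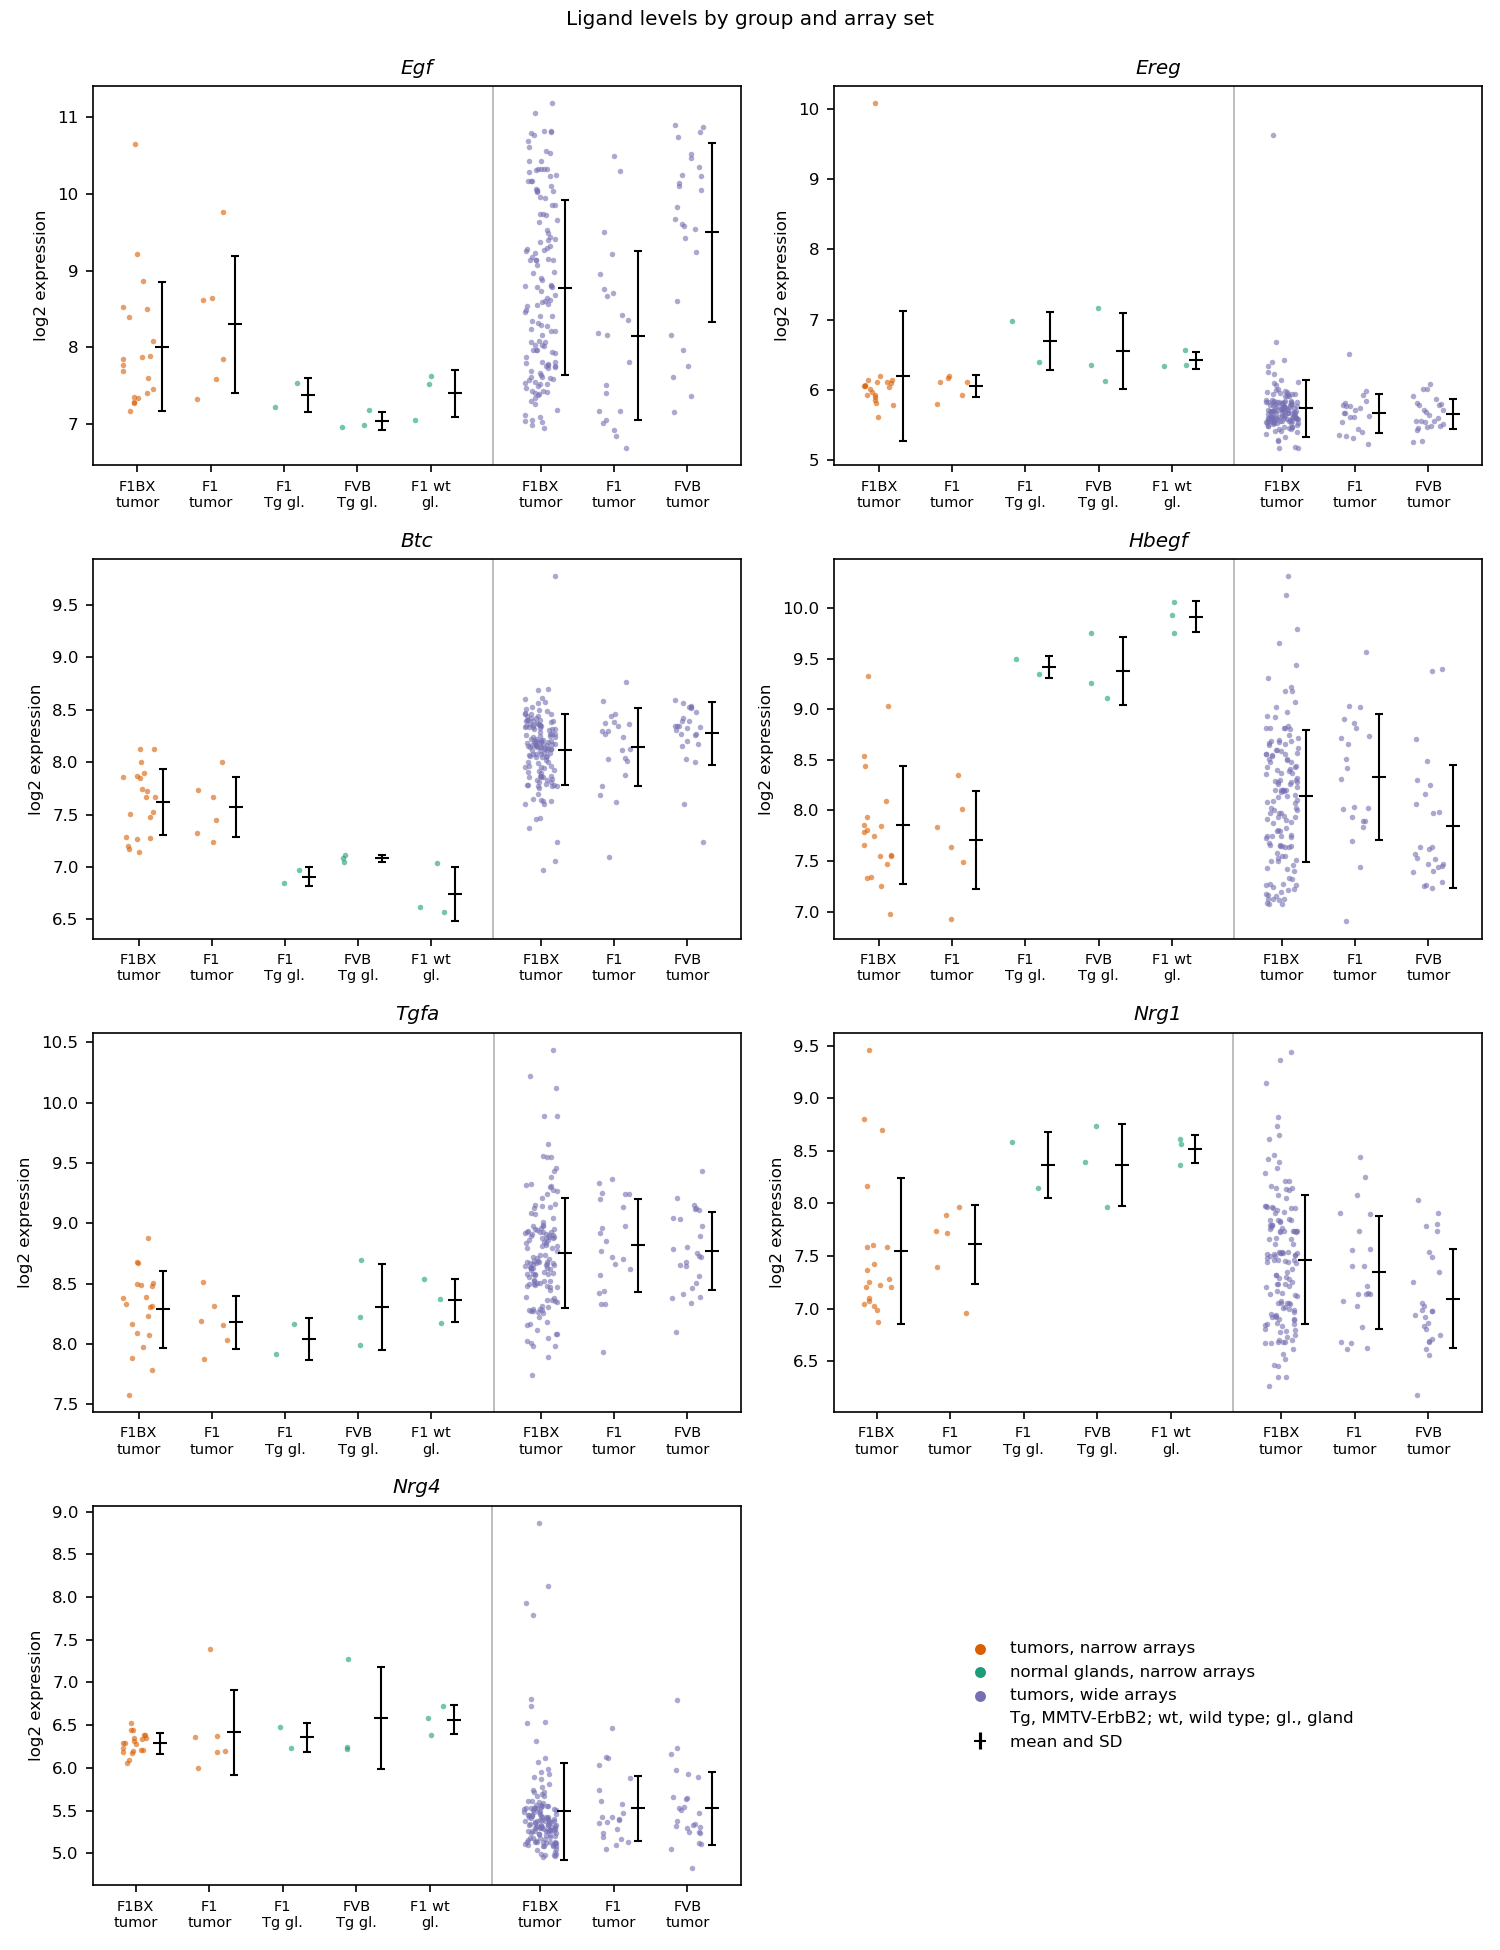
Log2 expression (y axis) of the 7 measured ligands by group (x axis), 1 point per array, with the mean and SD beside the points; arrays of the narrow set stand left of the grey line and those of the wide set right of it. Egf spreads over more than 4 log2 units in wide F1BX tumors, Hbegf lies higher in the glands than in 25 of 26 narrow tumors, and 1 tumor in each set stands far above the rest for Ereg.

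Tumors were first compared with normal glands on the narrow arrays, where both kinds of tissue were present. Hbegf was the only measured ligand that passed both thresholds used for tumors against glands, a false discovery rate of 0.005 or less together with a change of 2-fold or more, and it was lower in tumors. Hbegf encodes a ligand of EGFR and ERBB4 whose transcript is quickly induced by stress and growth signals. Btc differed in the other direction, with no overlap between the groups, but by less than 2-fold. Therefore 0 of 7 ligands were called higher and 1 of 7 lower, against 7.37% of all probe sets called higher and 4.76% called lower. The median difference over all probe sets was -0.09.

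Hbegf ranged from 6.93 to 9.33 in the 26 narrow tumors, with a median of 7.77. The glands had 9.49 and 9.34 in F1 MMTV-ErbB2 mice, 9.76, 9.26 and 9.11 in FVB MMTV-ErbB2 mice, and 9.75, 9.93 and 10.06 in F1 wild type mice. All narrow tumors but 092T1 lay below every gland. The difference was -1.77 (SE 0.202, 95% CI -2.18 to -1.36, adjusted p = 4.08e-09, limma), a 3.40-fold lower level in tumors. Without the narrow tumors of gland-level Erbb2 it was -1.91 (adjusted p = 2.20e-12). In the wide set 176 of 188 tumors lay below every gland, but there tissue and array set cannot be told apart. Immediate early genes such as Fos and Egr1, and inflammatory genes such as Il6, were also lower in tumors. Their part in the Hbegf difference was not tested. The mean of 10 immediate early genes ranged from 8.06 to 9.34 in narrow tumors and from 9.81 to 11.32 in glands, and 7 of the 10 were called lower in tumors, with a median difference of -2.53. All 7 inflammatory genes were called lower in tumors, and their mean was 6.28 to 9.23 in narrow tumors against 9.16 to 12.43 in glands. Markers of basal cells (6 of 8 called lower), fibroblasts (4 of 7) and T cells (5 of 5) moved the same way, against 4.76% of all probe sets called lower. Their means ranged from 7.03 to 8.88 in narrow tumors and from 8.05 to 10.46 in glands for basal cells, and from 6.35 to 6.75 in narrow tumors and from 7.75 to 9.40 in glands for T cells. For fibroblasts they ranged from 7.03 to 12.22 in narrow tumors, around the whole range of 10.47 to 12.08 in glands. In such bulk samples fewer cells of a type and less RNA per cell cannot be told apart.

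Btc, which encodes betacellulin, ranged from 7.15 to 8.13 in narrow tumors, with a median of 7.67. The glands had 6.84 and 6.97 in F1 MMTV-ErbB2 mice, 7.05, 7.08 and 7.11 in FVB MMTV-ErbB2 mice, and 7.04, 6.57 and 6.61 in F1 wild type mice. All 26 tumors lay above every gland. The difference was 0.70 (SE 0.116, 95% CI 0.46 to 0.93, adjusted p = 5.03e-06, limma), or 1.62-fold, which was under the fold threshold. On the wide arrays 185 of 188 tumors lay above every gland, but no gland was on such an array, and Btc also read higher on wide than on narrow arrays among F1BX tumors.

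Egf was low and even among the glands, whereas the tumors spread widely. It ranged from 7.17 to 10.65 in narrow tumors, with a median of 7.85, and 16 of 26 tumors lay above every gland. The glands had 7.22 and 7.54 in F1 MMTV-ErbB2 mice, 7.18, 6.96 and 6.99 in FVB MMTV-ErbB2 mice, and 7.05, 7.63 and 7.52 in F1 wild type mice. The difference was 0.81 (SE 0.294, 95% CI 0.22 to 1.41), and its adjusted p of 0.0197 in limma did not reach the false discovery rate of 0.005. Thus most narrow tumors exceeded the glands, but the remaining 10 lay within their range.

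Nrg1 ranged from 6.88 to 9.46 in narrow tumors, with a median of 7.38. The glands had 8.14 and 8.59 in F1 MMTV-ErbB2 mice, 7.96, 8.39 and 8.74 in FVB MMTV-ErbB2 mice, and 8.36, 8.62 and 8.57 in F1 wild type mice. Most tumors (21 of 26) lay below every gland, and 231T1 and 246T1R lay above them. The difference was -0.86 (SE 0.222, 95% CI -1.31 to -0.41, adjusted p = 0.00145, limma), or 1.81-fold, again under the fold threshold. Quantile normalization, which puts all arrays on 1 distribution, carried both Btc (1.09) and Nrg1 (-1.24) past 2-fold.

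The other 3 ligands were close to the glands on narrow arrays. Tgfa, which encodes another ligand of EGFR, had a median of 8.31 in narrow tumors and 8.20 in glands, with a difference of 0.00 (95% CI -0.24 to 0.24, adjusted p = 0.993). Nrg4 had a median of 6.29 in narrow tumors and 6.43 in glands, with a difference of -0.20 (95% CI -0.43 to 0.03, adjusted p = 0.129). Ereg had a median of 6.05 in the narrow F1BX tumors and 6.38 in the glands, and 20 of 26 narrow tumors lay below every gland. Its difference of -0.37 (95% CI -0.95 to 0.20) did not pass (adjusted p = 0.272, limma), with 092T1 far above every other narrow tumor. Without the 3 narrow tumors whose Erbb2 lay within the gland range (076T1, 092T1 and F1_26T1), it was -0.53 (adjusted p = 9.67e-06).

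Comparing all 214 tumor arrays with the glands called 4 ligands. Egf (1.42) and Btc (1.17) were higher and Hbegf (-1.5) and Nrg1 (-1.0) lower in tumors, against 17.5% of probe sets called higher and 10.7% called lower. However, this comparison mixes tissue with the array set, since no gland was on a wide array. With the set as a term only Hbegf was called (-1.77, adjusted p = 2.47e-10, limma).

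**Figure D2:**
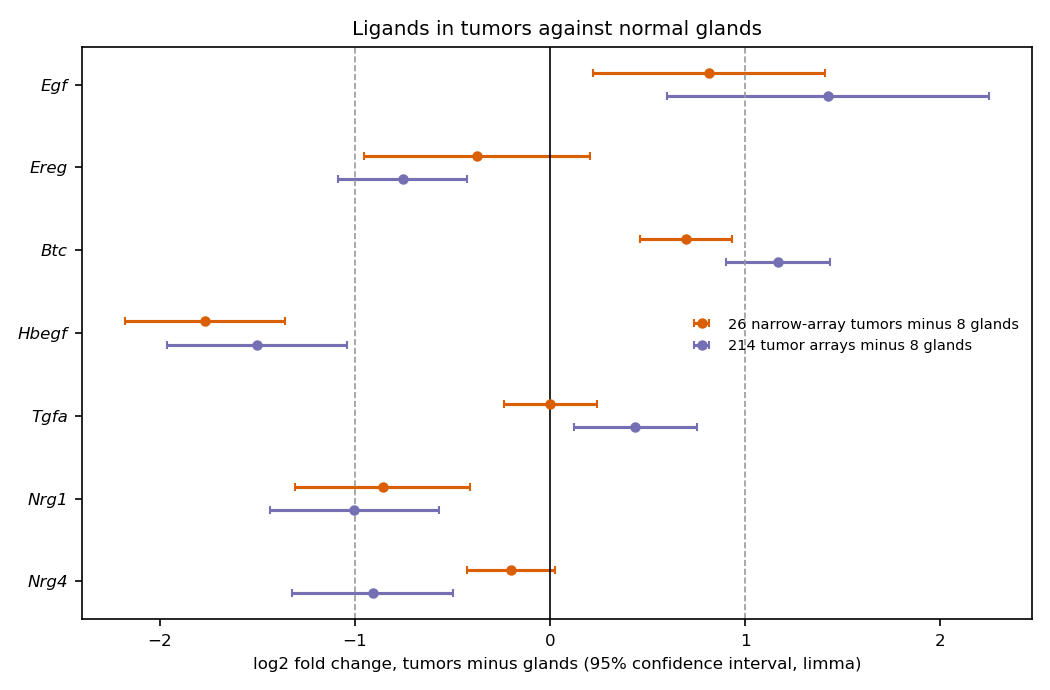
Log2 fold change of tumors over normal glands (x axis) for each ligand (y axis), with 95% confidence intervals from limma, on narrow arrays alone and over all arrays; dashed lines mark 2-fold. On narrow arrays only the Hbegf interval (-2.18 to -1.36) lies beyond 2-fold, and Tgfa lies at 0.00.

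Other genes of the pathway were taken from lists fixed by name. On the narrow arrays 7.37% of all probe sets were called higher in tumors and 4.76% lower. Among the receptors, 2 of 4 were called higher in narrow tumors by limma. They were Erbb2, the gene of the transgene (2.65, adjusted p = 3.30e-07), and Erbb3 (1.88, adjusted p = 0.000158), the ERBB2 partner that binds neuregulin 1. Egfr had -0.74 (adjusted p = 0.00248) and Erbb4 0.42 (adjusted p = 0.346). Of 12 shedding and trafficking genes, the sheddase gene Adam10 was called higher (1.06, adjusted p = 3.23e-06) and Timp3, an inhibitor of ADAM17, lower (-2.12, adjusted p = 4.27e-06). Adam17 had 0.32 (adjusted p = 0.169). The median over these 12 genes was -0.13, near that of all probe sets. Of 10 adaptors only Gab2 was called, and it was lower (-1.30, adjusted p = 1.05e-10). Of 10 inhibitors of the receptors, Socs3 (-2.61, adjusted p = 2.59e-15) and Cblb, a ubiquitin ligase (-2.46, adjusted p = 3.79e-09), were called lower, and the median was -0.44. None of the 3 remaining family ligands Epgn (-0.00), Nrg2 (0.55) and Nrg3 (-0.22) was called.

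The second question was whether the genetic background of the mouse went with ligand levels. This was tested among the wide arrays, with tumors of the same mouse treated as a block. Egf was the only measured ligand with a difference that passed, and FVB tumors had the highest mean. Egf ranged from 6.95 to 11.18 in F1BX tumors (median 8.63), from 6.69 to 10.50 in F1 tumors (median 8.18), and from 7.16 to 10.90 in FVB tumors (median 9.75). The groups overlapped over nearly their whole range, but the share of tumors at a log2 value of 10 or more was 21.4% (30 of 140) in F1BX, 9.09% (2 of 22) in F1 and 46.2% (12 of 26) in FVB. None of the 8 glands reached 8, but all of them lay on narrow arrays. Of the F1BX tumors, 35% (7 of 20) reached 8 on narrow arrays and 67.1% (94 of 140) on wide arrays.

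F1 tumors had 2.54-fold less Egf transcript than FVB tumors (log2 -1.34, SE 0.335, 95% CI -2.0 to -0.68, adjusted p = 0.00307, limma). So 0 of 7 ligands were called higher and 1 of 7 lower, against 5.78% and 6.47% of all probe sets at an adjusted p under 0.05. F1BX tumors lay between these groups. Their Egf was 1.67-fold lower than in FVB tumors (log2 -0.74, SE 0.246, 95% CI -1.22 to -0.25, adjusted p = 0.0470), again the only ligand called, against 3.58% of probe sets called higher and 3.16% called lower. This call was at the edge of the threshold. With 1 array per mouse it was -0.80 with an adjusted p of 0.0633. Between F1BX and F1 tumors no ligand was called (0 of 7, against 1.97% of probe sets higher and 1.68% lower), and Egf differed by 0.61 (95% CI 0.08 to 1.13, adjusted p = 0.173). In the narrow set Egf had a median of 7.81 in F1BX and 8.23 in F1 tumors (difference -0.29, 95% CI -1.06 to 0.49, adjusted p = 0.970). There 0% of probe sets were called in either direction, with 1142 higher and 787 lower at an unadjusted p under 0.05. The F1BX minus F1 difference itself did not pass a test of interaction with the array set for Egf (-0.88, 95% CI -2.01 to 0.24, adjusted p = 0.877) or any other ligand. Here too 0% of probe sets were called higher and 0% lower (806 and 1375 at an unadjusted p under 0.05).

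For the other 6 ligands no difference between backgrounds passed. Hbegf averaged 8.14 ± 0.65 in F1BX, 8.33 ± 0.62 in F1 and 7.84 ± 0.61 in FVB tumors (SD, n = 140, 22 and 26). Neither the F1 minus FVB difference of 0.48 (adjusted p = 0.0735) nor the F1BX minus FVB difference of 0.30 (adjusted p = 0.182) passed. Nrg1 averaged 7.46 ± 0.61 in F1BX, 7.34 ± 0.53 in F1 and 7.09 ± 0.47 in FVB tumors. Its F1BX minus FVB difference of 0.37 (SE 0.128, 95% CI 0.12 to 0.62) had an adjusted p of 0.0567 in limma, and the adjusted p was under 0.05 without the mouse block (0.0483) or without 051T1 and 063T1 (0.0381), whose names have the form of another background. Btc averaged 8.12 ± 0.34 in F1BX, 8.15 ± 0.37 in F1 and 8.28 ± 0.30 in FVB tumors, and Tgfa averaged 8.75 ± 0.46 in F1BX, 8.82 ± 0.39 in F1 and 8.77 ± 0.33 in FVB tumors. Between F1 and FVB tumors 5.78% of all probe sets were called higher and 6.47% lower. Among the pathway lists, no receptor was called between them. Of 10 adaptors, 4 were called higher in F1 tumors, by small amounts, namely Grb2 (0.16, adjusted p = 0.00297), Stat3 (0.26, adjusted p = 0.00232), Src (0.29, adjusted p = 0.0119) and Plcg1 (0.28, adjusted p = 0.0232). The inactive rhomboid genes Rhbdf1 (0.31, adjusted p = 0.00866) and Rhbdf2 (0.20, adjusted p = 0.0140), which guide the maturation of ADAM17, were also higher, and the receptor inhibitor Lrig3 was lower (-0.51, adjusted p = 0.0136).

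For the ligand that differed between backgrounds and for Btc, the promoter sequence was read from RefSeq on the mouse genome build GRCm38.p6. The table held 5 of the 8 ligands. Each window covers 250 bases before an annotated start of transcription and is written 5′ to 3′ on the strand of the gene. The 5 motifs searched, on both strands, were TTCNNNGAA for STAT factors, CCGGAA for ETS factors, TGANTCA for AP-1, TATAAA, and the nuclear receptor motif AGGTCA. They were in 7.02%, 12%, 6.75%, 12.4% and 14% of all 32851 windows of this length. Capitals mark the matches, which do not overlap each other. Egf had 2 windows, at chr3:129755323-129755572 and chr3:129725087-129725336, both on the minus strand, and only the second held a match, to CCGGAA, from 45 to 40 bases before the start. Btc, at chr5:91402995-91403244 on the minus strand, held none of them, which says only that these letters are absent from this window.
Egf, first window: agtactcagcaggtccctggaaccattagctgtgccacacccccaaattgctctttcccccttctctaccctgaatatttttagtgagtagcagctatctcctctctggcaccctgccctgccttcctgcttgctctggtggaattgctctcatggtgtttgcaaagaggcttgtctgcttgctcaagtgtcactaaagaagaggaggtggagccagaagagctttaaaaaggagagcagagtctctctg
Egf, second window: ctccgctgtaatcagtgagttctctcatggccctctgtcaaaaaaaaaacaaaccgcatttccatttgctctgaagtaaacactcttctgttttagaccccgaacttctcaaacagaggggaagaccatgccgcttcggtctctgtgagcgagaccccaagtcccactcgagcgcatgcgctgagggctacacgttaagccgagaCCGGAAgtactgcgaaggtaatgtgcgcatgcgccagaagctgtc
Btc: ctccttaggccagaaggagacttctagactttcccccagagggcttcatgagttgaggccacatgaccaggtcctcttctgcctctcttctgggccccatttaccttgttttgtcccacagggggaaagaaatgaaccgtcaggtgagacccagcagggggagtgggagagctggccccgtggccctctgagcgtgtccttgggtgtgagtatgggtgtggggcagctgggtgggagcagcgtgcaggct

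In the normal glands neither the transgene nor the background went with a ligand level that passed the test. Between MMTV-ErbB2 and wild type F1 glands, 0 of 7 ligands and 0% of probe sets were called higher, and likewise 0% lower, with 854 higher and 872 lower at an unadjusted p under 0.05. Erbb2 had 9.78 and 10.48 in F1 MMTV-ErbB2 glands and 8.26, 8.30 and 8.35 in F1 wild type glands with no overlap. Hbegf had 9.49 and 9.34 in F1 MMTV-ErbB2 glands, below the 9.75, 9.93 and 10.06 of F1 wild type glands, and its difference of -0.50 (95% CI -1.09 to 0.10) did not pass (adjusted p = 1.0). Between F1 and FVB MMTV-ErbB2 glands Egf had the difference 0.34 (adjusted p = 0.817). Here too 0% of probe sets were called higher and 0% lower, with 273 and 208 at an unadjusted p under 0.05. With 2 or 3 glands a group the intervals were wide, and that of Hbegf reached past 2-fold.

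Ligand levels also differed between tumors of the same mouse. In the 30 F1BX mice with at least 2 tumors on wide arrays (77 tumors), the SD of Egf within a mouse was 1.08, against 1.14 over all 140 wide F1BX tumors. Nrg1 (0.64 within, 0.61 overall), Nrg4 (0.58 and 0.57) and Hbegf (0.59 and 0.65) also varied within a mouse about as much as overall. Erbb2 varied less, with 0.17 within a mouse and 0.18 over the 139 tumors without 168T1 (0.32 with it). In 18 of the 30 mice the highest and lowest Egf differed by more than 1, that is by over 2-fold, and for Erbb2 in none. Such gaps were rarer for Tgfa (4 mice), Btc (2 mice) and Ereg (1 mouse). The SD within a mouse was 0.37 for Tgfa, 0.28 for Btc and 0.22 for Ereg. Mouse 251 had the largest Egf gap, with 11.05, 8.80 and 7.41 in its 3 tumors. Its Hbegf ran the opposite way, with 7.07, 8.28 and 8.84 in the same tumors. In mouse 117, Egf was 8.59, 10.69, 11.18 and 10.77 and Hbegf 8.92, 7.13, 7.24 and 7.12 in 4 tumors. Mouse 163 had Egf at 7.54, 8.48 and 10.42 and Hbegf at 9.22, 8.27 and 7.27. Other mice did not show this course. Mouse 026 had Egf at 9.28, 7.40 and 9.24 and Hbegf at 8.02, 7.80 and 7.89. Mouse 187 had Egf at 7.49, 8.64 and 8.61 and Hbegf at 8.48, 8.62 and 8.00. The relation of Egf and Hbegf within mice was not tested. For Nrg1 the widest gap was in mouse 126, with 7.05 and 9.44.

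Across mice, Egf and Hbegf ran opposite ways in F1BX and FVB tumors on wide arrays. Over 93 F1BX tumors on wide arrays, 1 for each mouse, Pearson's r was -0.61 and Spearman's rho -0.62 (permutation p = 1e-05 for each, the smallest that 100000 permutations give, two-sided). The adjusted p was 0.00014 for r and 0.00028 for rho over the 28 relations computed among the 7 ligands and Erbb2. Without the 2 tumors farthest from the Egf median, r was -0.59. In FVB tumors r was -0.84 (n = 22, adjusted permutation p = 0.00028), and -0.79 without the 2 farthest tumors. In narrow F1BX tumors r was -0.53 and did not pass (n = 20, adjusted p = 0.14). In F1 tumors r was 0.13 and rho -0.02 (n = 16, adjusted p = 0.81). The difference between backgrounds was not tested. When each wide tumor was put above or below the median of each gene (8.69 for Egf and 8.09 for Hbegf), 71 of 188 had high Egf with low Hbegf, 71 the reverse, 23 both high and 23 both low. Of the 26 FVB tumors, 18 had high Egf with low Hbegf.

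**Figure D3:**
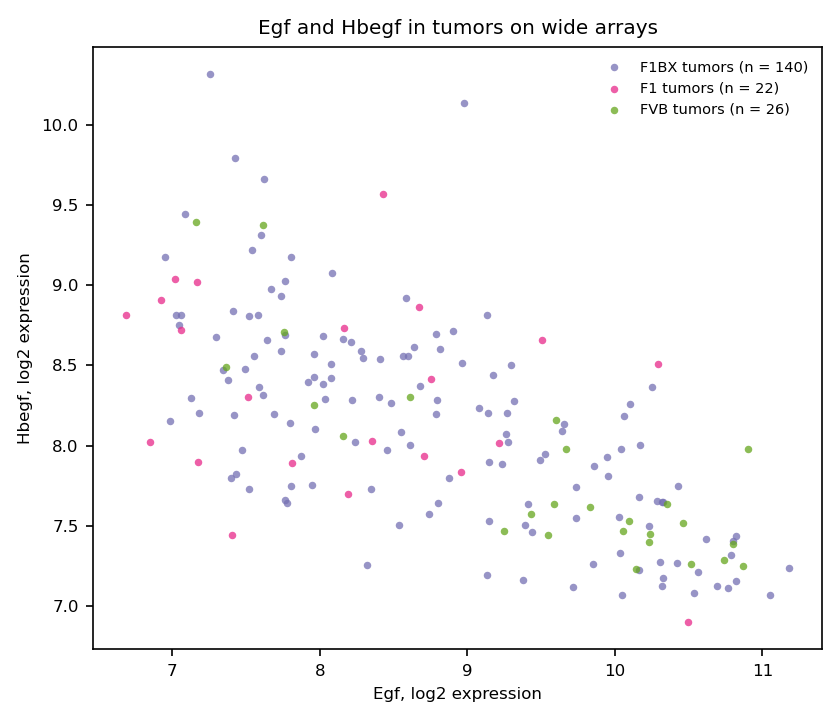
Egf (x axis) against Hbegf (y axis), both in log2 expression, in the 188 tumors on wide arrays, 1 point per array, colored by background. Tumors with Egf above 10 mostly have Hbegf below 8, and FVB tumors gather at high Egf and low Hbegf (18 of 26 by the medians 8.69 and 8.09).

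Egf also ran opposite to Tgfa (r = -0.32, adjusted p = 0.00987). Of the 21 pairs of ligands, 4 had an adjusted p under 0.05. Besides these 2, Ereg with Btc (r = 0.33) and Ereg with Hbegf (r = 0.27) passed, each with an adjusted p of 0.0445, but without tumor 168T1 the first was -0.19 and the second 0.12. Hbegf was inversely related to Erbb2 (r = -0.35, adjusted p = 0.00987, and -0.29 without 168T1, adjusted p = 0.0299). In narrow F1BX tumors this relation was -0.76 (adjusted p = 0.0196), but it rested on 092T1 and 076T1, as r was -0.19 without them and rho over all 20 was -0.40 (adjusted p = 0.405). The inverse relations of Nrg1 (r = -0.28) and Btc (r = -0.36) with Erbb2 passed only with 168T1 in the set. Without it r was -0.20 for Nrg1 (adjusted p = 0.19), still inverse, and 0.16 for Btc.

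Each ligand was then related to the mean of each of 17 marker lists, and 37 of these relations had an adjusted p under 0.05 in the 93 F1BX tumors and 1 in the 20 narrow ones. Hbegf moved with the mean of the immediate early genes (r = 0.54, rho = 0.54, adjusted p = 0.000149, and 0.45 without the 2 farthest tumors). This was the relation that also passed in the narrow tumors (r = 0.83, adjusted p = 0.00238), though less firmly, with r = 0.59 without 092T1 and 076T1 and rho = 0.56 (adjusted p = 0.291). Hbegf was higher with the inflammatory genes (r = 0.52) and lower with T cell markers (r = -0.46), with r of 0.34 and -0.20 in the narrow tumors. Egf was lower with the immediate early genes (r = -0.31, adjusted permutation p = 0.0136). It was higher with the mean of Prol1, Bpifa2 and Glycam1 (r = 0.43, rho = 0.51, adjusted permutation p = 0.000397). These were the 3 measured of 4 genes listed as markers of salivary and lymph node tissue. None of them was among the 50 genes most like Egf over the wide tumor arrays. The salivary gland is a rich source of EGF in mice, and the part of such tissue in the Egf levels was not tested. Bulk samples do not show which cells made these transcripts. The tumor with the highest level of these 3 markers (247T2, mean 13.11, against a wide tumor median of 6.05) had Egf at 9.72. Over all wide tumors the median of Egf was 8.69 and the highest value 11.18. Btc was lower with basal markers (r = -0.48, rho = -0.54, adjusted p = 0.000149). Tgfa was higher with the mean of Mbp and S100b, the 2 measured of 4 markers of Schwann cells and nerve (r = 0.61, rho = 0.56, adjusted p = 0.000149). Of the 2 genes only S100b was among the 50 most like Tgfa over the wide tumor arrays (r = 0.55). The highest levels of Tgfa were 10.44 in 123T2, 10.22 in 278T2 and 10.13 in 299T4.

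Ereg was low in nearly all tumors, and 2 tumors stood apart. Tumor 092T1 of the narrow set had 10.08, against 6.20 in the next highest narrow tumor and 7.17 in the highest gland. Tumor 168T1 of the wide set had 9.63, against 6.68 in the next highest wide tumor. In both, Erbb2 was at the level of the glands (8.32 in 092T1 and 9.32 in 168T1, against 11.73 or more in every other wide tumor). The epithelial adhesion gene Epcam was also far below the other tumors, at 6.39 in 092T1 (others 11.90 to 12.68) and 6.49 in 168T1 (others 11.83 to 12.61), and so was Erbb3 at 6.22 and 7.01. The luminal keratin gene Krt8 was not low in them, at 12.23 in 092T1 (others 11.91 to 12.83) and 12.88 in 168T1 (others 11.92 to 13.43). Krt18 was the lowest of the narrow tumors in 092T1 (10.79) but near the median of the wide tumors in 168T1 (12.66, median 12.75). Hbegf was 9.33 in 092T1, the highest of the narrow tumors, and 9.79 in 168T1, below only 064T2 (10.31) and 084T1 (10.13) of the wide ones. They differed in other ligands, as Btc was 7.29 in 092T1 and 9.77 in 168T1, the highest of all tumors. The other tumors of low Erbb2, 076T1 (10.31) and F1_26T1 (9.72), had Ereg of 5.86 and 6.19. Over the 93 F1BX tumors Ereg and Erbb2 had r = -0.85 (adjusted p = 0.00014) and rho = -0.37 (adjusted p = 0.00401), and without 168T1 r was -0.42 (adjusted p = 0.00056).

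**Figure D4:**
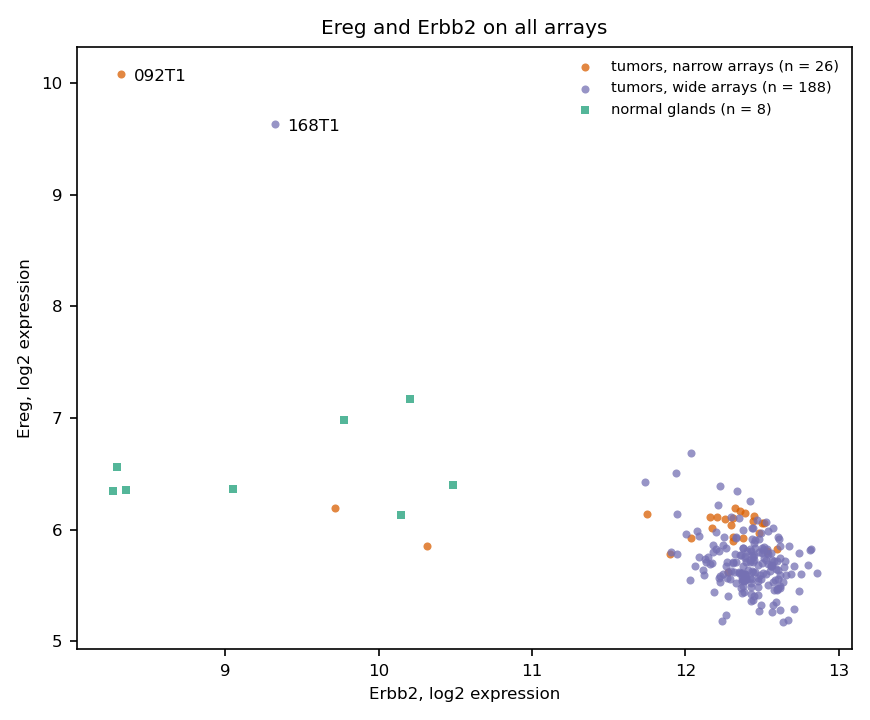
Erbb2 (x axis) against Ereg (y axis), both in log2 expression, 1 point per array, for tumors on narrow arrays, tumors on wide arrays and normal glands. Tumors 092T1 (Ereg 10.08, Erbb2 8.32) and 168T1 (9.63 and 9.32) lie apart from the other tumors and from the glands, which have Ereg of 6.13 to 7.17.

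Nrg4, known as a factor secreted by fat cells, was flat in most tumors, with a median of 5.36 in wide F1BX tumors, and high in few. The highest levels were 8.87 in 292T3, 8.13 in 240T1, 7.93 in 095T2 and 7.79 in 050T2. The same 4 tumors had the highest means of 5 adipocyte genes of the 188, with 10.55, 9.85, 9.49 and 9.80, against a median of 6.90. The correlation with this mean was 0.83 by Pearson (adjusted p = 0.000149, and 0.75 without the 2 farthest tumors) but 0.34 by rank. In the narrow F1BX tumors r was 0.44 (adjusted p = 0.344). The other tumors of mouse 292 had Nrg4 at 5.13 and 5.46. The part of fat tissue in these samples was not tested. In the glands, whose adipocyte mean was 7.85 to 8.45, Nrg4 was 6.22 to 7.27. The Nrg4 promoter window, at chr9:55283626-55283875 on the minus strand, is shown because Nrg4 moved together with genes of fat cells. It held 2 copies of the nuclear receptor motif AGGTCA, both read on this strand as TGACCT, from 90 to 85 and from 26 to 21 bases before the start. At least 1 copy was present in 14% of all windows.
Nrg4: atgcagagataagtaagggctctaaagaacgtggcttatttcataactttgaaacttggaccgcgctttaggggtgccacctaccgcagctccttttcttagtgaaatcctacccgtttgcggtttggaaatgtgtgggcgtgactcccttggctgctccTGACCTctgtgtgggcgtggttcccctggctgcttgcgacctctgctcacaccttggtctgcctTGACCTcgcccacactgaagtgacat

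**Figure D5:**
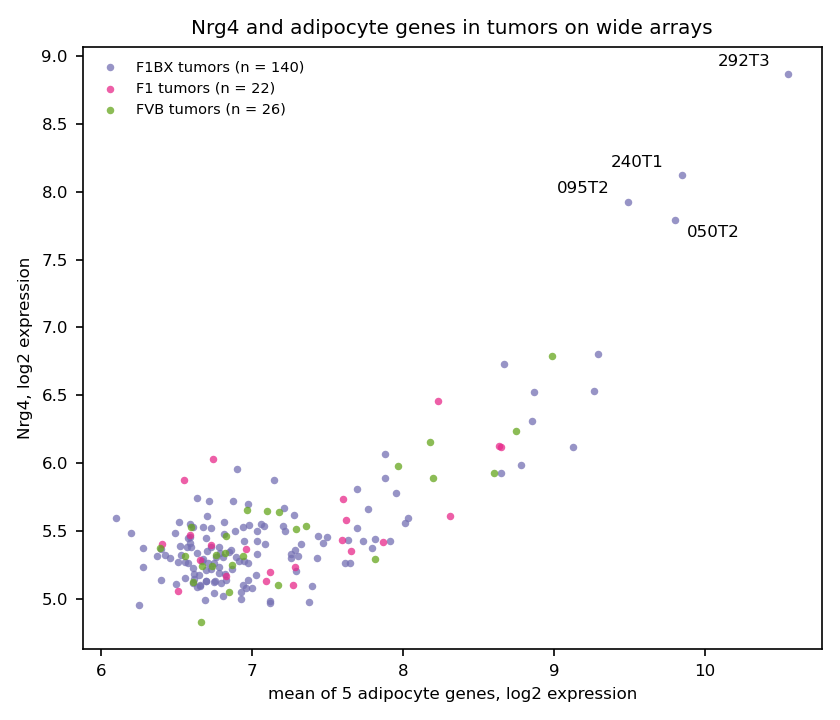
Mean log2 expression of 5 adipocyte genes (x axis) against Nrg4 (y axis, log2 expression) in the 188 tumors on wide arrays, 1 point per array, colored by background. Below an adipocyte mean of about 8 Nrg4 stays near its median, and the 4 tumors with Nrg4 from 7.79 to 8.87 have adipocyte means from 9.49 to 10.55.

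The genes whose pattern was most like that of each ligand over the 188 wide tumor arrays were named as a description, and these arrays share tumors of the same mice. For Egf they were Pik3c2g (r = 0.83), Ccpg1 (0.78) and Eef2k (0.78). For Hbegf they were Anxa3 (0.75), Pdlim7 (0.73) and Septin9 (0.73), and the immediate early gene Junb was among the first 50 (0.64). For Nrg4 they were Aqp7 (0.88), Acvr1c (0.87) and Gys2 (0.87), and the adipocyte genes Plin1 and Adipoq were among its first 50. Aqp7 encodes the glycerol channel of fat cells. For Tgfa they were Rspo3 (0.63), Cmtm5 (0.61) and Lmcd1 (0.59), for Btc Scfd2 (0.58), Pigg (0.52) and Rsbn1l (0.51), and for Nrg1 Mad1l1 (0.56), Sesn2 (0.55) and Rell1 (0.52). For Ereg they were Ptprn (0.81), Aff2 (0.77) and Nr2f1 (0.76), which without 168T1 had 0.52, 0.35 and 0.36.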

How the data were processed

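Total RNA of mammary tumors (214 arrays of 212 tumors by name) and 8 normal glands was hybridized to Affymetrix mouse gene 1.0 ST arrays. The deposited log2 values had been normalized by the authors with RMA in the Expression Console software. No source used here gives the software version or the probe annotation. Probe sets were named from the platform table, and each ligand was taken from its single-symbol probe set with the highest mean over the 222 arrays. Array medians were 7.06 to 7.40. Arrays have no counting depth, so their number limits the precision.

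Groups came from the labels. Arrays were divided at an interquartile range of 2.8. Groups were compared over all 35556 probe sets with limma 3.58.1 (statmod 1.5.0, R 4.3.3) and Benjamini-Hochberg adjustment. Tumors of the same mouse were a random block (within-mouse correlation 0.0906 among wide tumors and 0.259 over all arrays). Tumors against glands were called at a false discovery rate of 0.005 or less with a change of 2-fold or more, the thresholds of the study's methods, and other comparisons at an adjusted p under 0.05. Correlations were two-sided with 100000 permutations (Python 3.11.15, numpy 2.4.6). The fits were tested on simulated data. The text names the ligands, Erbb2, the genes of the pathway and marker lists and the 3 most similar genes of each ligand. Single tumors named for their values were chosen after these were seen. The members and lists were chosen with earlier results of these data known. Alternatives were quantile normalization, a filter on low signals, SAM with 100 permutations, other blocks and samples left out. The correlations in FVB and F1 tumors and the values without 168T1 were added after seeing the data. No source used here says how the glands of a group are related, so p-values measure the spread between these samples. Hbegf promoter sequence is not reported here.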

Additional observations from a re-analysis of the deposited data

Results flagged for a closer look

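Among the 16 groups of 4 to 10 values examined for a single sample far from the rest, 2 stood out, both in the 6 F1 tumors on narrow arrays. At the 95% critical value used, chance flags about 1 in 20 groups. Nrg4 was 7.39 in F1_22T1, against 6.37 in the next highest of the 6 tumors, and F1_22T1 had an adipocyte mean of 9.28, the highest of the narrow tumors. Erbb2 was 9.72 in F1_26T1, against 12.04 in the next lowest. Its Ereg was 6.19 and its Hbegf 8.35. The F1BX minus F1 difference was tested between narrow and wide arrays for all 7 ligands, and none passed.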

How the results depend on the processing

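Hbegf was called lower in narrow tumors than in glands under every alternative run (-1.57 to -1.98), and the lower Egf of F1 than FVB tumors passed in every alternative (adjusted p up to 0.0316). On narrow arrays quantile normalization called 3 ligands instead of 1, and samples left out in turn gave 1. The 17 settings on narrow arrays called 3418 to 5116 probe sets. Over all arrays 4 ligands and 10026 probe sets were called. With MMTV-ErbB2 glands only, 2 ligands were called, and with the array set as a term 1 ligand and 4367 probe sets (2645 higher, 1722 lower). The 17 settings over all arrays called 4367 to 10401 probe sets. Leaving out glands in turn gave 3 to 4 ligands, because Nrg1 fell under 2-fold (-0.96 to -0.98) without F1 MMTV-ErbB2 gland 2, FVB MMTV-ErbB2 gland 3 or F1 wild type gland 2 or 3.

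For F1BX against FVB tumors (1 ligand, 2398 probe sets), 2 ligands were called without the mouse block and 2 without 051T1 and 063T1, the added one being Nrg1. The 8 settings of this comparison called 1414 to 2894 probe sets. With 1 array per mouse 0 ligands and 1414 probe sets (720 higher, 694 lower) were called. For F1BX against F1 tumors (1297 probe sets), both sets with no term gave 123 (49 higher, 74 lower). For MMTV-ErbB2 against wild type glands (0 probe sets), group means over all narrow arrays gave 327 (237 higher, 90 lower), and leaving out a gland gave 0 to 1060. The highest count, 701 higher and 359 lower, came without FVB MMTV-ErbB2 gland 3, which is in neither group but enters the spread, and its array had the lowest interquartile range (1.86). For F1 against FVB glands those group means gave 4. The causes were not tested.

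Of the 28 relations among ligands and Erbb2, 8 passed in the 93 wide F1BX tumors, 2 in narrow F1BX tumors, 0 in F1 tumors and 6 without 168T1. The sign turned in narrow F1BX tumors for Ereg with Btc (-0.27), Btc with Erbb2 (0.50) and Nrg1 with Erbb2 (0.0048), in FVB tumors for Ereg with Btc (-0.085) and Ereg with Erbb2 (0.035), in F1 tumors for Egf with Hbegf (0.13) and Ereg with Btc (-0.046), and without 168T1 for Ereg with Btc (-0.19) and Btc with Erbb2 (0.16).

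Glands share replicate numbers across groups. Deviations from the group mean had r of -0.19 to 0.39 between same-numbered glands of different groups and -0.39 to 0.33 between differently numbered ones. With 2 or 3 glands a group, taking off the group mean partly fixes these values. They therefore cannot tell whether the numbers mark a pairing. With the replicate block 0 ligands and 0 probe sets were called, as without it, and the Hbegf difference of MMTV-ErbB2 minus wild type glands was -0.53. A next probe set of a ligand could not be tried, since each ligand had 1.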
